A study of Mus musculus with 20 samples.

Results

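The genes described here lie in 1 stretch of mouse chromosome 6, from 81.98 to 86.79 Mb of the mm10 (GRCm38) assembly, 4.81 Mb long, and include Hk2, which encodes hexokinase 2. A gene was a member when the GENCODE M21 annotation placed it across any base of the interval and its raw counts summed to at least 100 over the 20 libraries, leaving out pseudogenes and the ribosomal and respiratory-chain symbols beginning with Rpl, Rps, Nduf, Uqcr, Cox or Atp5. Of 178 annotated genes there, 96 had fewer than 100 counts (37 of them had none), 3 were pseudogenes and none was left out for its symbol, which left 79 members (66 protein-coding) of the 55536 genes in the count table. The interval was chosen by the knockout against wild-type differences of these same libraries, and its ends are the first base of Gm20383 and the last base of Anxa4. Every genotype value of a member below is therefore a description. Where members are said to be called, the threshold of the fit across all genes only marks which ones stand out in libraries that also entered their choice, and neither the calls nor their counts are evidence about the interval.

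The libraries are bulk RNA-seq of hippocampus, the brain region of spatial and episodic memory, from male mice at 12 weeks of age whose strain label is C57BL/6J in both genotypes. Fkbp5 encodes FKBP51, a co-chaperone that lowers the affinity of the glucocorticoid receptor for its hormone, and LPS (lipopolysaccharide) is a bacterial cell-wall component that sets off a systemic inflammatory response. The 4 groups, of 5 libraries each, were Fkbp5 knockout mice given 3 mg/kg LPS, knockout mice given saline, wild-type mice given 3 mg/kg LPS and wild-type mice given saline, all by 1 injection into the abdominal cavity and all collected 7 days later. The labels describe neither the construction of the knockout allele nor the mice behind each replicate number, so a p-value here measures the spread between libraries.

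Members of a chromosome interval are tied by position and not by function. Neighbouring genes tend to be inherited together, and a DNA difference that alters the level of a transcript close to it on the same chromosome is called a cis-acting variant. Within the interval are single-copy genes of unrelated work, among them enzymes, transcription factors and cytoskeletal proteins, and 1 tandem cluster, the Nat8 family, whose genes arose from one another by duplication and have very similar sequences. Hk2 itself performs the first step of glycolysis, the phosphorylation of glucose, and can sit on the outer mitochondrial membrane. In the adult brain the related Hk1 is the main hexokinase.

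Libraries held 16652992 to 27230202 counts, of which members took 0.266% to 0.331%, and a count of 0 in all 5 libraries of a group still allows up to 0.0282 to 0.0317 CPM (3 counts over the group's total; counting error only). The level used throughout is CPM, the count scaled to a common library total with edgeR's TMM factors. Fkbp5, which lies on another chromosome, had 25.0 to 36.0 CPM in the 10 knockout libraries and 56.7 to 73.2 CPM in the 10 wild-type libraries, so that no library went against its genotype label; transcripts of the targeted gene were still counted in the knockout. In every group replicates 1 and 2 stood apart from replicates 3 to 5 on the first principal component (52.9% of the variance of all tested genes), with 4.66% to 5.68% and 8.41% to 11.4% of counts on mitochondrial genes. Values from the 2 library sets are given separately for the genes described most closely. Summed markers of thalamus were highest in knockout LPS replicate 1 (125 CPM) and wild-type LPS replicates 1 and 4 (158 and 152 CPM), and the 10 hippocampal markers, all detected, summed to 706 to 1330 CPM. In bulk tissue fewer cells of a type and less RNA per cell cannot be told apart.

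Promoter sequences are shown for the protein-coding members with the clearest genotype differences, Hk2, Anxa4 and Nat8f5, and for Nat8f2, a paralog of Nat8f5 whose level lay the other way. They are RefSeq windows on GRCm38.p6 running from 250 bases before to 50 bases after the annotated start, all on the minus strand and written 5′ to 3′. Capitals mark matches, on either strand, to 7 short motifs: the GC box with the letters GGGCGG, the TATA element with TATAAA, the E-box with CACGTG, the hypoxia response core with ACGTG (contained in the E-box), the cyclic AMP response element with TGACGTCA, the glucocorticoid receptor half-site with TGTTCT and the box named after its letters CCAAT.
Hk2, chr6:82774405-82774704: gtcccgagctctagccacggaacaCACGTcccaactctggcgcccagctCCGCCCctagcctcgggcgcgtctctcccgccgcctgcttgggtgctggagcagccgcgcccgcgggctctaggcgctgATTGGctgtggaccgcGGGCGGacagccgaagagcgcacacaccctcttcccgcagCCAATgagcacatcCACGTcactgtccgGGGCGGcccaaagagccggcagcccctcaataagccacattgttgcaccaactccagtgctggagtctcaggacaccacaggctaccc
Anxa4, chr6:86793535-86793834: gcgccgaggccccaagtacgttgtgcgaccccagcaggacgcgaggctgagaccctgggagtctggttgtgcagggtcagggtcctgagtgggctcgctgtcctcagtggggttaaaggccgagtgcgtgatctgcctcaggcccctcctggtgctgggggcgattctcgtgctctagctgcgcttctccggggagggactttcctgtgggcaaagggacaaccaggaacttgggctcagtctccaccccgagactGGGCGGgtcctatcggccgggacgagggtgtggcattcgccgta
Nat8f5, chr6:85820923-85821222: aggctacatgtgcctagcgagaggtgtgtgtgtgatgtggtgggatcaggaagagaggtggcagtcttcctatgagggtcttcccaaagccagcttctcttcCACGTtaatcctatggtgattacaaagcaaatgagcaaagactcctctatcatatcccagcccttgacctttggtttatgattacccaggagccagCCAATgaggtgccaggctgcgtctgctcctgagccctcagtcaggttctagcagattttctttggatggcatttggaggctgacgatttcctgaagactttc
Nat8f2, chr6:85869088-85869387: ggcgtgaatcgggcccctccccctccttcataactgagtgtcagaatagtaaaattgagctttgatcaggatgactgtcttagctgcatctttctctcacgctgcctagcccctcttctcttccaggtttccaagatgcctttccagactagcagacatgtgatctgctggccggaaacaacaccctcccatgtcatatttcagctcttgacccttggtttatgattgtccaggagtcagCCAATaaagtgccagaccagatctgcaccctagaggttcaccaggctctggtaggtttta
The Hk2 window held 3 GC boxes, 2 ACGTG cores and 2 CCAAT boxes and was 67.3% G or C. Anxa4 had 1 GC box in a window of 65.3% G or C. The Nat8f5 window held 1 ACGTG core and 1 CCAAT box, and the Nat8f2 window 1 CCAAT box; aligned to each other they were identical at 65.9% of positions, against 53.0% to 60.7% for the alignments between Hk2, Anxa4 and these 2 genes. Of the 60 members matched to a RefSeq window, 60.0% had a GC box and 48.3% a CCAAT box. The TGTTCT half-site was in 23.3% of them and an ACGTG core in 21.7%. Among all 27025 genes with a RefSeq window the shares were 38.2%, 41.1%, 21.3% and 21.8% in the same order. Members had to meet the count rule and those genes did not, so the shares come from unlike sets of genes. Whether members differ in these motifs from other genes that meet the count rule was not tested. None of the 4 printed windows contained the TGTTCT half-site. These are matches of letters and not binding sites.

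Knockout and wild-type hippocampus differed at a few members scattered along the interval, while most of their neighbours were at nearly the same level. Over both treatments Gm20383 and Anxa4 were higher in knockout and Hk2, Gm15624 and Nat8f5 were lower, these 5 of the 71 members that passed the expression filter having an adjusted p under 0.05 (edgeR's quasi-likelihood test across all 16419 genes tested; 0.439% of all genes were called). The interval was drawn around such differences, so the count is no result about it. With the replicate number as a block 10 members were called (1.07% of all genes), the additional ones being Tex261, Sema4f, 1700124L16Rik, Sfxn5 and Nat8f4, all lower in knockout. Gm20383, Gm15624 and Nat8f5 stayed past the threshold whichever of the 20 libraries was left out, but Anxa4 did so in 5 of 20 cases and Hk2 in 4 of 20.

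Along the position, 36 tested members were above and 35 below a log2 fold change of 0, with a median of 0.00 for the interval and −0.01 for all genes. The median distance from 0 was 0.137 in the interval, 0.123 over the 5 tested genes in the 5 Mb before it, 0.0839 over the 54 in the 5 Mb after it, 0.0980 over the rest of the chromosome and 0.0840 over all genes. Among genes of more than 10 CPM it was 0.0641 for 45 members and 0.0591 for all 9668. The 4 members past a log2 fold change of 1 in either direction, Gm20383, Gm15624, 1700124L16Rik and Nat8f5, lay apart from one another. Of the well-expressed genes between them, some had small values, such as Dctn1 (0.09), Exoc6b (0.12) and Cct7 (0.05). Others were further from 0, such as Sfxn5 (−0.28), Tex261 (−0.27) and Sema4f (−0.25).

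**Figure D1:**
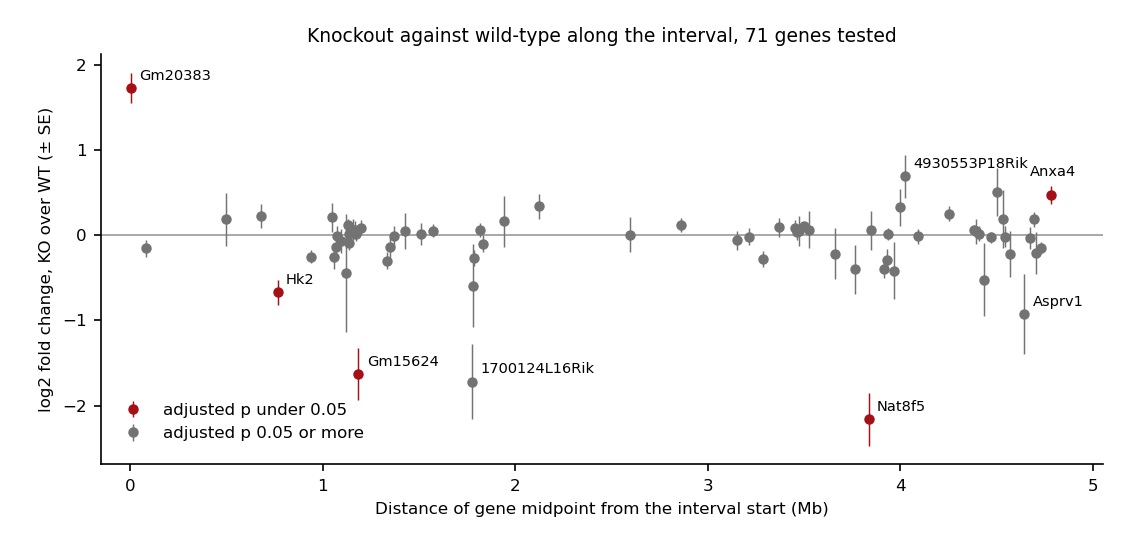
Log2 fold change of knockout over wild-type across both treatments (vertical axis, ± SE) against the distance of each gene's midpoint from the start of the interval in Mb (horizontal axis), for the 71 tested members. The 5 members past the adjusted threshold are spread from the first gene, Gm20383 (1.73), to the last, Anxa4 (0.47), and genes near 0 lie between them.

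The nearest gene on either side of the interval differed little between genotypes, although values of −0.71 and −1.28 occurred within 5 Mb before and after it, without a call. Mrpl19, a mitochondrial ribosomal protein gene and the nearest gene before Gm20383, had 25.1 ± 2.42 CPM in knockout and 26.2 ± 3.31 CPM in wild-type (SD, n = 10 each), a log2 fold change of −0.06. The nearest gene after Anxa4, 2610306M01Rik, had 6.00 ± 0.932 CPM in knockout and 5.51 ± 0.891 CPM in wild-type, a log2 fold change of 0.12. Neither of these neighbours separated the genotypes. At the count threshold, Gm42600 (100 counts), Dqx1 (102) and Gm44941 (102) were just inside and B230319C09Rik (97), Nat8f6 (92) and Gm38843 (92) just outside. The 8 members that did not pass the expression filter were Dqx1, Ccdc142os, Slc4a5, Gm42600, Nat8f7, Nat8f2, Gm44090 and Gm44941.

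Among the metabolic enzymes and mitochondrial proteins, Hk2 was the member that differed most. It had 3.47, 8.15, 5.07, 5.81 and 4.32 CPM in the 5 knockout LPS libraries and 4.70, 5.74, 5.24, 3.07 and 3.54 CPM in the 5 knockout saline libraries. Wild-type levels were 7.01, 6.40, 9.21, 7.91 and 8.28 CPM after LPS and 6.66, 8.48, 7.31, 8.99 and 7.95 CPM after saline. The genotypes did not overlap after saline, and after LPS a single knockout library, replicate 2 at 8.15 CPM, reached the wild-type range; the other 9 knockout libraries all lay below every wild-type library. Group means were 5.36 ± 1.78 and 4.46 ± 1.13 CPM in knockout and 7.76 ± 1.10 and 7.88 ± 0.924 CPM in wild-type after LPS and saline (SD, n = 5 each), a knockout level at 62.8% of wild-type. On the log2 scale knockout differed from wild-type by −0.67 ± 0.14 (SE) over both treatments, by −0.81 after saline and by −0.53 after LPS. Within the library sets it was −0.35 for replicates 1 and 2 and −0.88 for replicates 3 to 5. Without knockout LPS replicate 2 it was −0.77. It was −0.61 without knockout LPS replicate 1 (adjusted p of 0.0529 by edgeR). Without the 3 libraries highest in thalamus markers it was −0.62 (adjusted p of 0.136 by edgeR).

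The other 11 metabolic members lay within a log2 fold change of −0.30 to 0.11. Mthfd2, a mitochondrial enzyme of one-carbon folate metabolism, had a log2 fold change of −0.30, with a median of 4.86 CPM in knockout (3.96 to 6.81) and 6.45 CPM in wild-type (5.67 to 7.28). Sfxn5, a sideroflexin of the inner mitochondrial membrane, had a median of 163 CPM in knockout (128 to 174) and 193 CPM in wild-type (140 to 229), and 7 of its 10 wild-type libraries were above every knockout library. Nearest to 0 were Cyp26b1, which breaks down retinoic acid (0.00), Bola3, a mitochondrial iron-sulfur cluster assembly factor (−0.01), and Dguok, the mitochondrial deoxyguanosine kinase (0.01).

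The 22 genes of glycolysis outside the interval that are reported here, all tested, did not pass the threshold in either direction in any of the 7 comparisons (0 of 22 by edgeR, by DESeq2 and under the replicate block). For genotype over both treatments 0 of them had an unadjusted p under 0.05 by edgeR (4.79% of all genes did) and 0 by DESeq2. Under the block 3 did, and the share of all genes under it is not given here. Hk1 had 492 ± 121 and 500 ± 61.1 CPM in knockout and 437 ± 102 and 453 ± 92.5 CPM in wild-type after LPS and saline (SD, n = 5 each), a log2 fold change of 0.16. Over the 22 genes the log2 fold changes ran from −0.20 to 0.16 with a median of 0.05, against −0.01 for all genes.

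The cytoskeletal and membrane-traffic members were led by Anxa4, annexin A4, a calcium-dependent phospholipid-binding protein and the last gene of the interval. It had 5.13, 4.86, 5.67, 5.08 and 5.01 CPM in knockout LPS libraries and 4.41, 5.15, 4.85, 5.94 and 5.36 CPM in knockout saline libraries. In wild-type it had 3.70, 4.30, 3.16, 4.56 and 3.46 CPM after LPS and 3.88, 2.99, 2.83, 4.38 and 3.85 CPM after saline. Within each treatment the genotypes did not overlap, and across treatments only knockout saline replicate 1 (4.41 CPM) fell below the highest wild-type library (4.56 CPM). Its log2 fold change over both treatments was 0.47 ± 0.10 (SE), with 0.42 after LPS and 0.52 after saline, and 0.42 in replicates 1 and 2 and 0.52 in replicates 3 to 5. Its exons share 75 bases with Gm44036 on the opposite strand, and whether counting used the strand is not given in the sources used here.

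Other members of this class differed less. Dysf, dysferlin, which acts in repair of the surface membrane, had a median of 2.46 CPM in knockout (1.82 to 3.07) and 2.05 CPM in wild-type (1.12 to 2.40), with overlapping ranges. Tex261, a membrane protein gene, had a median of 38.4 CPM in knockout (32.1 to 46.4) and 46.7 CPM in wild-type (39.5 to 55.2), and 5 knockout libraries were below every wild-type library. Dctn1, the large subunit of the dynein activator dynactin, and Add2, β-adducin of the membrane skeleton, were at 283 to 420 and 271 to 408 CPM in knockout against 316 to 437 and 313 to 451 CPM in wild-type. Their log2 fold changes were 0.09 and −0.02.

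The Nat8 cluster, 7 members that encode acetyltransferases of the endoplasmic reticulum related to human NAT8, did not differ in 1 direction: some of its genes were lower in knockout and others higher. Nat8f5 had 0.145, 0.171, 0.272, 0.282 and 0.251 CPM in knockout LPS libraries and 0.253, 0.128, 0.0961, 0.447 and 0.221 CPM in knockout saline libraries. In wild-type it had 0.433, 1.62, 0.902, 0.420 and 1.43 CPM after LPS and 0.730, 1.11, 1.55, 0.828 and 1.04 CPM after saline. The genotypes separated within each treatment, and knockout saline replicate 4 alone lay above the 2 lowest wild-type LPS libraries. Summed over libraries these were 46 counts in knockout and 194 in wild-type, and the log2 fold change was −2.16 ± 0.31 (SE), −2.42 in replicates 1 and 2 and −1.98 in replicates 3 to 5. The gene shares 135 exon bases on its own strand with Nat8f6, whose reads could not be told apart there; Nat8f6 had 0.258 ± 0.143 CPM in knockout and 0.168 ± 0.0540 CPM in wild-type (SD, n = 10 each).

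Nat8f7 and Nat8f2 lay the opposite way to Nat8f5 but were too low to be tested. Nat8f7 had a median of 0.359 CPM in knockout (0.164 to 0.774) and 0.0727 CPM in wild-type (0 to 0.197), or 86 and 19 counts in all; 9 of 10 knockout libraries were above every wild-type library. Nat8f2 had a median of 0.384 CPM in knockout (0.0627 to 0.904) and 0.125 CPM in wild-type (0 to 0.456), or 92 and 34 counts. The longest transcripts of Nat8f7 and Nat8f3 were 99.4% identical and those of Nat8f2 and Nat8f4 93.1%. Nat8f6 matched 78.5% of the length of Nat8f7 and of Nat8f3, at 98.3% and 98.5% identity. The division of reads among these copies is therefore uncertain. Nat8f4, which with Nat8f1 was the highest of the family per kilobase of exon (4.01 and 4.21 CPM per kb), had a median of 11.3 CPM in knockout (8.04 to 12.5) and 14.3 CPM in wild-type (11.3 to 21.0), without overlap after LPS. Nat8f3, Nat8f1 and Nat8 had log2 fold changes of −0.40, −0.29 and 0.06, with overlapping ranges.

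**Figure D2:**
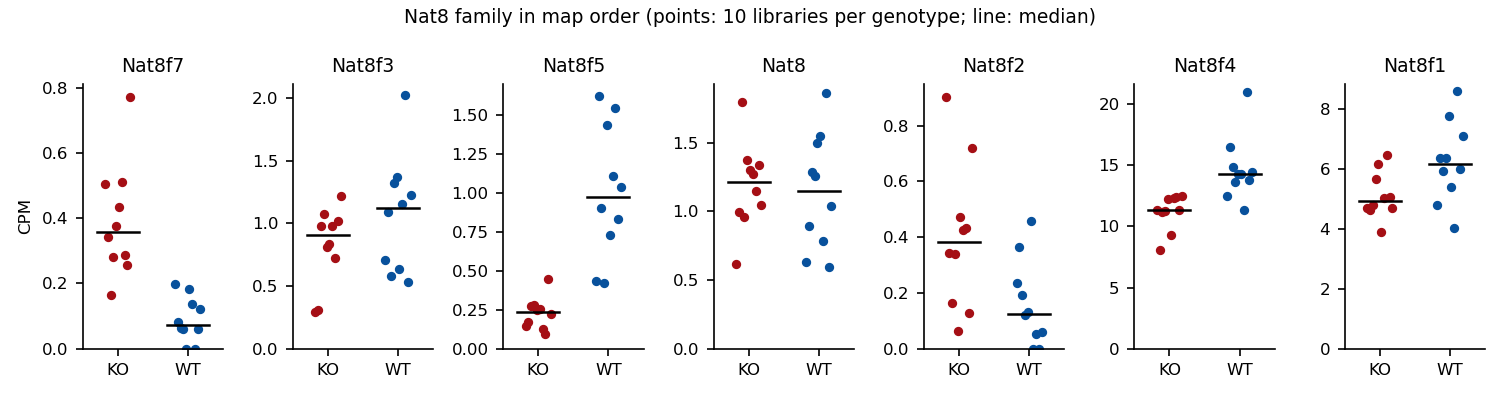
CPM (vertical axis) of the 7 members of the Nat8 family in chromosome order, with 1 point for each of the 10 knockout and 10 wild-type libraries and a line at the median. Nat8f5 and Nat8f4 are lower in knockout and Nat8f7 and Nat8f2 higher, while Nat8 has nearly the same median in both genotypes (1.22 and 1.15 CPM).

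The 5 tested members among receptors, ligands and signalling genes had log2 fold changes of −0.25 to 0.25. Sema4f, a transmembrane semaphorin, had 56.0, 49.1, 54.9, 52.5 and 52.5 CPM in knockout LPS libraries and 49.2, 42.0, 59.1, 58.0 and 54.3 CPM in knockout saline libraries. In wild-type it had 66.5, 49.0, 63.1, 65.6 and 71.1 CPM after LPS and 61.9, 59.4, 65.8, 61.7 and 63.6 CPM after saline. The saline groups did not overlap, and wild-type LPS replicate 2 lay inside the knockout range; the log2 fold change was −0.25. Tgfa, a ligand of the epidermal growth factor receptor, had a median of 45.3 CPM in knockout (38.2 to 60.5) and 39.7 CPM in wild-type (32.7 to 42.3), a log2 fold change of 0.25. Slc4a5, a sodium bicarbonate cotransporter abundant in choroid plexus, was untested, with 0.103 to 0.981 CPM (98 counts in all) in knockout and 0.0456 to 0.414 CPM (41 counts) in wild-type, a knockout level at 226% of wild-type. The 8 choroid plexus markers, all detected, summed to 30.9 to 136 CPM in knockout and 26.4 to 91.2 CPM in wild-type, and their part in the Slc4a5 values was not tested.

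Members of chromatin and transcription (9 genes) had log2 fold changes of −0.09 to 0.23 and those of RNA processing and translation (7 genes) of −0.52 to 0.19. Pole4, an accessory subunit of DNA polymerase epsilon, was at the upper end, with a median of 47.5 CPM in knockout (34.4 to 57.2) and 46.9 CPM in wild-type (26.6 to 49.5). The log2 fold change of Pole4 was 0.58 in replicates 1 and 2 and 0.06 in replicates 3 to 5. Tia1, an RNA-binding protein of stress granules, was at the lower end, with a median of 24.8 CPM in knockout (22.5 to 116) and 30.3 CPM in wild-type (22.7 to 158). Its spread followed the library sets: replicates 1 and 2 had 41.6 to 158 CPM and replicates 3 to 5 had 22.5 to 30.9 CPM. Emx1, a homeobox factor of the developing cortex and hippocampus, Tet3, which oxidises methylated cytosine, and Pcbp1, a poly(C)-binding RNA regulator, had log2 fold changes of −0.02, 0.05 and −0.02.

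The remaining members, many of them transcripts without a known role, included 3 of the 4 genes past a log2 fold change of 1. Gm20383, a long intergenic non-coding RNA and the first gene of the interval, had 2.57, 2.53, 4.20, 3.50 and 2.82 CPM in knockout LPS libraries and 3.80, 3.87, 3.99, 4.34 and 4.37 CPM in knockout saline libraries. In wild-type it had 0.669, 0.648, 1.29, 0.779 and 1.43 CPM after LPS and 1.00, 0.737, 1.65, 1.597 and 1.10 CPM after saline. It was the 1 member whose 10 knockout libraries all lay above its 10 wild-type libraries (0.119% of the 16793 genes that meet the count rule separated in either direction). The knockout level was 330% of wild-type, with a log2 fold change of 1.73 ± 0.18 (SE), 2.06 in replicates 1 and 2 and 1.56 in replicates 3 to 5.

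Gm15624 is an antisense transcript at chr6:83166152-83172755 that lies inside Dctn1 on the other strand and shares no exon with it. It had 1.48, 0.787, 0.817, 0.282 and 0.752 CPM in knockout LPS libraries and 0.977, 1.28, 0.769, 0.447 and 0.774 CPM in knockout saline libraries. Wild-type levels were 4.33, 3.20, 1.74, 2.58 and 1.76 CPM after LPS and 5.43, 2.53, 1.65, 1.30 and 1.65 CPM after saline. Within each treatment no knockout library reached a wild-type one, and 9 of 10 knockout libraries were below every wild-type library. The log2 fold change was −1.63 ± 0.30 (SE), −1.75 in replicates 1 and 2 and −1.45 in replicates 3 to 5, whereas the host gene Dctn1 had 0.09. It was higher in replicates 1 and 2 than in replicates 3 to 5 (means of 2.50 and 1.21 CPM), and reads from unspliced Dctn1 could not be told apart from it without strand.

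**Figure D3:**
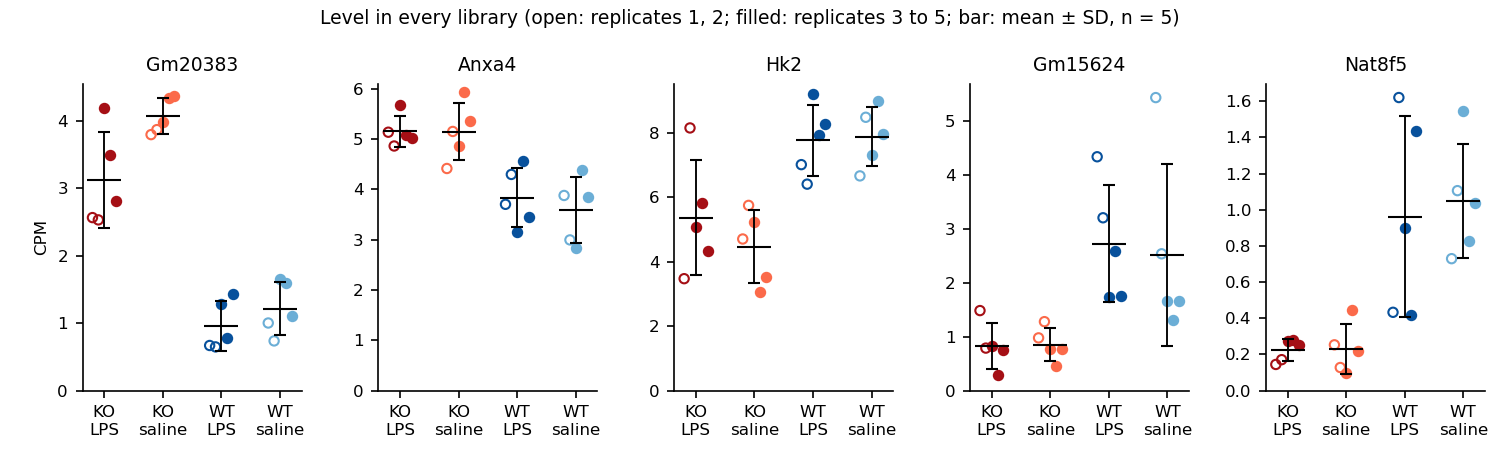
CPM (vertical axis) of Gm20383, Anxa4, Hk2, Gm15624 and Nat8f5 in each library of the 4 groups, with open points for replicates 1 and 2, filled points for replicates 3 to 5 and bars for the mean ± SD (n = 5). Gm20383 separates all knockout from all wild-type libraries, and in each of the other 4 genes 9 of 10 knockout libraries lie beyond every wild-type library.

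1700124L16Rik, an antisense transcript that shares 222 exon bases with Ankrd53, had a median of 0.147 CPM in knockout (0 to 0.723) and 0.797 CPM in wild-type (0.213 to 1.34), with 7 knockout libraries below every wild-type library. Its log2 fold change was −1.72, and −2.16 without knockout LPS replicate 1. Asprv1, a retroviral-like protease known from skin, Ankrd53, which encodes an ankyrin-repeat protein, and Gm42688, most of whose exon bases belong also to other genes, had log2 fold changes of −0.92, −0.59 and −0.44 with ranges that overlapped widely. On the higher side, 4930553P18Rik (0.69), 2310040G24Rik (0.51) and Gm19265 (0.32) did not exceed 1.37 CPM in any library and overlapped between genotypes. Gm44090, singled out after its values were seen, had 8 counts in the knockout libraries together and 128 in wild-type, of which 60 were in wild-type LPS replicate 1 and 55 in wild-type saline replicate 1; it was not tested.

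The genotype values of the 2 treatments are set side by side only as a description, since both sets of libraries entered the choice of the interval. After saline the adjusted p was under 0.05 for Gm20383 and Nat8f5 (0.171% of all genes were called) and 7 of 79 members had non-overlapping ranges (0.738% of genes): Gm20383, Anxa4 and Nat8f7 higher and Hk2, Sema4f, Gm15624 and Nat8f5 lower in knockout. After LPS Gm20383 was called (0.146% of all genes) and 5 members did not overlap (0.798% of genes): Gm20383 and Anxa4 higher and Gm15624, Nat8f5 and Nat8f4 lower. Under the replicate block 3 members were called in each treatment, Gm20383, Gm15624 and Nat8f5 (0.359% of all genes after saline and 0.384% after LPS). Without the 3 libraries highest in thalamus markers, Nat8f5 and not Gm20383 was the member called after LPS, while the log2 fold change of Gm20383 was 1.56 after LPS (1.71 with all libraries) and 1.65 over both treatments.

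**Figure D4:**
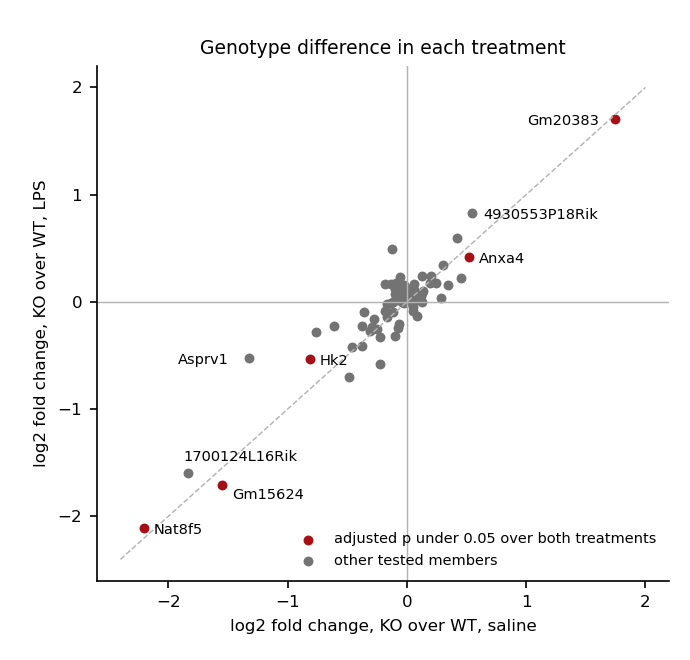
Log2 fold change of knockout over wild-type after LPS (vertical axis) against the same after saline (horizontal axis) for the 71 tested members, with equality as a dashed line. Nat8f5, Gm15624 and Gm20383 lie near the dashed line at its ends, and Hk2 is at −0.81 after saline and −0.53 after LPS.

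The comparison of LPS with saline was not used to choose the interval. At 7 days after injection no member passed the adjusted threshold in knockout, in wild-type, over both genotypes or for the interaction of genotype and treatment (edgeR; 0.00609%, 0%, 0.0426% and 0% of all genes were called). At an unadjusted p under 0.05 there were 1 member in knockout, 0 in wild-type, 2 over both genotypes and 0 for the interaction (1.75%, 2.07%, 2.71% and 1.11% of all genes). The replicate block also called 0 members in each (0.0305%, 0.0183%, 0.164% and 0% of all genes), as did DESeq2 (0.0426%, 0.0122%, 0.116% and 0%). The median log2 fold change of members was 0.03 in knockout and −0.03 in wild-type, against 0.01 and −0.02 for all genes.

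The member with the smallest p in knockout was Aup1, a lipid-droplet and endoplasmic reticulum protein of protein degradation. It had 50.2, 30.5, 34.3, 27.5 and 42.2 CPM in knockout LPS libraries and 29.0, 27.7, 29.5, 29.2 and 28.0 CPM in knockout saline libraries. Replicates 1 and 5 of knockout LPS stood above the rest and the groups overlapped, with a log2 fold change of 0.37 ± 0.16 (SE) and an adjusted p of 1.00 by edgeR.

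Tacr1, the receptor of substance P, had 4.77, 2.12, 2.29, 1.58 and 1.19 CPM in knockout LPS libraries and 1.70, 1.87, 1.30, 1.79 and 0.884 CPM in knockout saline libraries. In wild-type it had 4.25, 0.729, 1.42, 3.12 and 1.11 CPM after LPS and 1.37, 0.829, 1.71, 1.83 and 0.856 CPM after saline. Its 3 highest libraries were the 3 highest in thalamus markers; the log2 fold change of LPS over saline across genotypes was 0.68 ± 0.31 (SE) with all libraries and −0.0207 without those 3. For 2310040G24Rik, a long intergenic non-coding RNA, it was −0.63 ± 0.28 and for Gm20383 −0.37 ± 0.18.

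Hk2 after LPS was 0.26 ± 0.21 on the log2 scale in knockout and −0.02 ± 0.20 in wild-type, and Anxa4, Gm15624 and Nat8f5 were within 0.13 of 0 in both. For the interaction the smallest p belonged to C87436 (−0.22 ± 0.13), Aup1 (0.35 ± 0.22) and Smyd5, a lysine methyltransferase gene (0.29 ± 0.18), with adjusted p of 1.00 for each by edgeR.

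**Figure D5:**
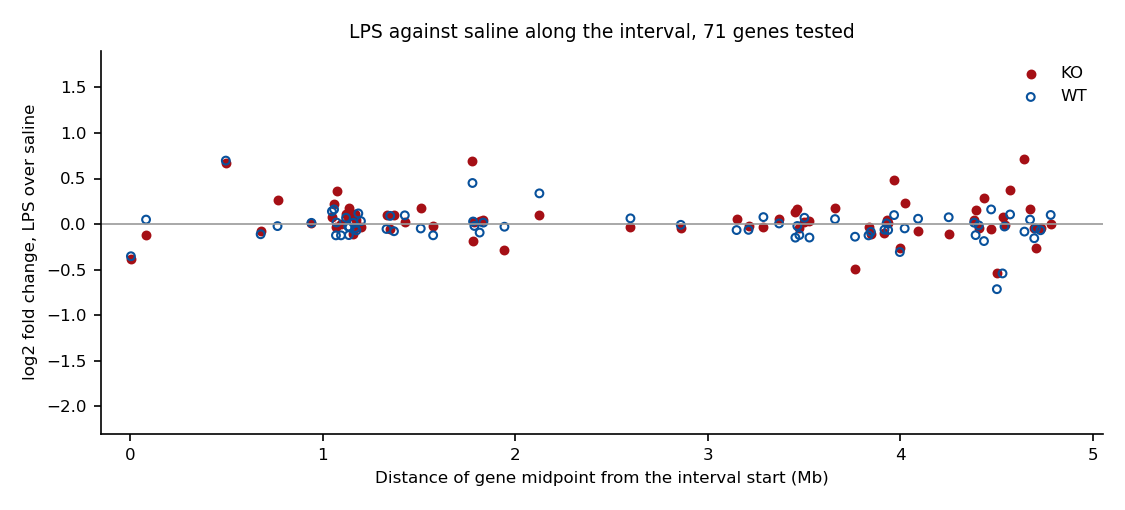
Log2 fold change of LPS over saline (vertical axis) against the distance of each gene's midpoint from the start of the interval in Mb (horizontal axis) for the 71 tested members, with filled points for knockout and open points for wild-type. Values run from −0.54 to 0.72 in knockout and from −0.72 to 0.70 in wild-type, and no member passed the adjusted threshold.

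Members also differed widely in level. Per kilobase of exon, Pcbp1 (106.5 CPM per kb), Dctn1 (56.4), Add2 (34.8) and Cct7, a subunit of the cytosolic chaperonin (29.2), were the highest. Hk2 stood at 1.07 CPM per kb, Anxa4 at 0.953, Nat8f5 at 0.625 and Gm15624 at 0.444, while Gm20383 was at 1.54. All 5 were below the median of 4.21 CPM per kb over the 71 tested members. Between library sets, a comparison added after the data were seen, 40 of 71 members differed (17 higher and 23 lower in replicates 1 and 2; edgeR with a term for group), as did 64.3% of all genes (34.1% higher and 30.2% lower). Hk2, Anxa4 and Nat8f5 were not among them (log2 differences of 0.04, −0.06 and −0.22), Gm15624 was higher in replicates 1 and 2 (0.99) and Gm20383 lower (−0.48).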

How the data were processed

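Hippocampal RNA-seq of 20 libraries was analysed. Per the labels' protocols, RNA came from an RNeasy kit and libraries from the NEBNext Ultra kit; per the submitters' processing notes, Trimmomatic 0.38, FastQC, MultiQC and featureCounts 1.6.0 were used with mm10. Which aligner and annotation were used, whether strand was considered and how multiply mapped reads were treated is not given in the sources used here. The values the authors deposited are raw counts per gene, without normalization. All 55536 gene identifiers matched GENCODE M21, which gave symbols, positions and biotypes, and 0 sample columns went unused.

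From these counts, edgeR 4.0.16 (R 4.3.3; TMM, filterByExpr by group, robust quasi-likelihood F test, Benjamini-Hochberg over 16419 genes) was fitted to all libraries as 4 group means and tested on simulated data; 7 comparisons were made. The members, roles, lists and rule for named genes (Hk2, the 8 highest and 8 lowest log2 fold changes, members that do not overlap, both ends with the neighbours outside, the 3 smallest p of each LPS comparison, Hk1 and any glycolysis gene called) were chosen with earlier results of these data known. From the glycolysis list, 1 gene is not reported here. Same-numbered libraries deviated together (correlations of 0.264 to 0.854 over 30 pairs, median 0.462). Other numbers of the same library set did so about as much (0.191 to 0.672 over 48 pairs, median 0.450). Pairs from different library sets had −0.705 to −0.149 (72 pairs, median −0.492). The deviations went with the library set more than with the number, and the block was fitted as an alternative. Others were DESeq2 1.42.0, DESeq2 size factors, no expression filter, a filter of 1 CPM in 5 libraries, the library set as a term, each set alone, leaving out the thalamus-rich libraries and leaving out each library. Near-identical copies were sought with blast 2.17.0 (at least 95% identity over 30% of the transcript).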

Additional observations from a re-analysis of the deposited data

Results flagged for a closer look

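Of 80 groups of 5 libraries examined for the 20 named members, 7 held a library whose gap to its nearest neighbour, as a share of the group's range, passed Dixon's 95% critical value of 0.710; chance flags about 1 group in 20. Knockout LPS replicate 1 accounted for 4: Tia1 at 116 CPM (22.7 to 41.6 in the other libraries of the group), Smyd5 at 49.3 CPM (36.6 to 39.9), Gm42688 at 1.88 CPM (0.169 to 0.411) and 1700124L16Rik at 0.723 CPM (0.109 to 0.171). Asprv1 stood at 2.72 CPM in wild-type LPS replicate 1 (0.129 to 0.600 in the others). In wild-type saline, Aup1 was at 44.8 CPM in replicate 1 (29.3 to 29.9) and C87436 at 12.9 CPM in replicate 2 (10.2 to 10.8). All 7 values lie in replicates 1 and 2, the library set with the smaller share of mitochondrial counts, and the part of that set in them was not tested.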

How the results depend on the processing

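For knockout against wild-type over both treatments 5 members were called. Each percentage here is the share of all genes called under the same setting (0.439% in the main fit). The count was 3 without a filter on low counts (0.202%), 10 with the replicate block (1.07%) and 10 with the library set as a term (0.926%). DESeq2 called 7 (0.743%), adding 1700124L16Rik and Nat8f4. Replicates 1 and 2 alone gave 1, Gm20383 (0.0564%), and replicates 3 to 5 alone gave 17 (8.10%). There were 3 without the 3 thalamus-rich libraries (0.337%) and 3 to 6 on leaving out 1 library (0.322% to 0.492%). The count was 3 without any of replicates 3 to 5 of either knockout group, without wild-type LPS replicates 1, 3 or 5 and without wild-type saline replicates 2, 3 or 5; Gm20383, Nat8f5 and Gm15624 were then the members called. After saline 2 members were called (0.171%). The count was 1 without a filter (0.0714%), 1 with the stricter filter (0.168%), 0 from replicates 1 and 2 (0.0169%) and 4 from replicates 3 to 5 (3.22%). With DESeq2 it was 3 (0.292%), adding Hk2. On leaving out 1 library it was 1 to 2 (0.113% to 0.189%), and Nat8f5 was called in 5 of 20 such cases. Those were the cases without knockout LPS replicate 1, knockout saline replicate 4 or wild-type LPS replicates 1, 2 or 4. After LPS 1 member was called (0.146%). The count was 3 with DESeq2 (0.323%), 3 with the replicate block (0.384%) and 3 with the library set as a term (0.329%). Replicates 1 and 2 gave 0 (0.0226%) and replicates 3 to 5 gave 4 (0.76%). On leaving out 1 library it was 1 to 2 (0.0953% to 0.182%), with 2 without wild-type LPS replicate 1 or 4. After saline the block called 3 (0.359%), adding Gm15624. It changed no call of a member in the LPS comparisons. The 4 LPS comparisons gave 0 members under every setting run. The log2 fold change of Tacr1 for LPS over both genotypes turned to −0.0207 without the thalamus-rich libraries; the cause of these changes was not tested. Of the other values for single genes, 910 were counted as unchanged and 6 as moved. For knockout against wild-type over both treatments unchanged meant a move of less than the spread between libraries (1 SD). For the LPS comparisons and the interaction it meant that neither the sign nor the call changed. Most settings left out 1 of the 20 libraries, which can hardly move a value by 1 SD. With 0 members called in the LPS comparisons under every setting, only a sign could change there. These tallies therefore say little about stability. Low counts limit Nat8f5, Nat8f7, Nat8f2 and 1700124L16Rik.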
